A study of Mus musculus with 17 samples.

Results

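Levels of 10 G-protein-coupled receptor genes of the pancreatic islet were followed across all 6 groups of the study: Glp1r, Gipr, Gcgr, Ffar1, Gpr119, Adra2a, Chrm3, Galr1, Crhr1 and Sstr3. They were taken by name from 2 tables of RNA-seq counts, which hold 78239 and 73212 gene identifiers, and all 10 passed the filter on low counts, which left 19137 and 20167 genes for testing. The libraries were made from isolated islets of male mice. In the first table, 3 samples came from Pax4 WT mice and 3 from Pax4 HH mice at 12 weeks of age on SCD, the standard chow diet, and 3 of each genotype came from mice 16 weeks old that had been on HFD, a high-fat diet, for 4 weeks. HH denotes homozygous knock-in of the mouse counterpart of the PAX4 R192H variant. The second table holds 2 Control and 3 Pax4-BiKO samples from mice 20 weeks old and 8 weeks on HFD. All mice of the second table carried 2 floxed Pax4 alleles and received tamoxifen between 7 and 9 weeks of age. The HFD was started at 12 weeks, and only the Pax4-BiKO mice also carried the Pdx1-CreERT2 transgene. The Pdx1 promoter drives that Cre, so the deletion follows Pdx1 activity, which is strongest in β cells but is not limited to them in the islet. Because the Control mice lacked Cre, an effect of the transgene itself cannot be told apart from that of the deletion, and in the first table HFD cannot be told apart from the 4 weeks of added age.

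Each of these receptors spans the cell membrane and passes the binding of a hormone, transmitter or lipid to a G protein inside the cell. Those that couple to Gs, such as the receptors for GLP-1, GIP and glucagon, raise cAMP and thereby amplify insulin release at high glucose. Those that couple to Gq act through phospholipase C and calcium, and those that couple to Gi lower cAMP and restrain secretion. Of the 10, the stimulatory ones are Glp1r, Gipr and Gcgr, which bind peptides of the glucagon family, Crhr1, which binds corticotropin-releasing hormone and urocortins, Gpr119 and Ffar1, which sense lipid amides and long-chain fatty acids, and Chrm3, the muscarinic acetylcholine receptor of the β cell. Adra2a, Galr1 and Sstr3 are inhibitory and bind noradrenaline, galanin and somatostatin. Pax4 is a transcription factor with a paired domain and a homeodomain, and is needed for β cells to form in the embryo.

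Total counts ran from 24268157 to 42679645 per sample in the first table and from 28618835 to 31887537 in the second. A count of 3 in a sample was worth between 0.0724 and 0.126 CPM, the unit of all levels below (counts per 1000000 of the TMM-normalized library), a limit that covers counting error only. Pax4 itself had a count of 0 in all 17 samples, so the genotype labels could not be checked on that gene. Defining islet genes were present throughout, with all 12 β cell markers above 0 in every sample. The summed level of 25 acinar (digestive enzyme) markers differed between groups. It was 43886 to 115641 CPM in the 3 Pax4 HH samples on HFD, 19008 to 29636 CPM in Pax4 WT on HFD, 15428 to 30455 CPM in the 6 SCD samples, 28226 and 124152 CPM in the 2 Control samples and 19718 to 98141 CPM in the Pax4-BiKO samples. In such bulk samples, fewer cells of a type and less RNA per cell cannot be told apart.

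Promoter windows of the receptors are printed for the 3 members of the list that stood lower without overlap in Pax4 HH on HFD and have a window in the reference table, Glp1r, Ffar1 and Crhr1, and for Gpr119, which did not, for contrast. The windows run from 250 bases before to 50 bases after the RefSeq start on GRCm38.p6, in the direction of transcription. That table holds 32851 windows and has 8 of the 10 receptors. Capitals mark a homeodomain core (TAAT), a GC box (GGGCGG) or an E-box (CANNTG), each searched on both strands, and in Glp1r a pair of GC boxes overlaps by 1 base.
Glp1r, chr17:30901617-30901916, plus strand: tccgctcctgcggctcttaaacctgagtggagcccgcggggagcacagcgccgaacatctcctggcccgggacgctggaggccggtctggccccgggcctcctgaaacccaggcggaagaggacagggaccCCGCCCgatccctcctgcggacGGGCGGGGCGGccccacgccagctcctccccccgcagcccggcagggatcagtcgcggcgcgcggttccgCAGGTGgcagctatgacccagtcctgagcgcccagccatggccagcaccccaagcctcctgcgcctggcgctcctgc
Ffar1, chr7:30861421-30861720, minus strand: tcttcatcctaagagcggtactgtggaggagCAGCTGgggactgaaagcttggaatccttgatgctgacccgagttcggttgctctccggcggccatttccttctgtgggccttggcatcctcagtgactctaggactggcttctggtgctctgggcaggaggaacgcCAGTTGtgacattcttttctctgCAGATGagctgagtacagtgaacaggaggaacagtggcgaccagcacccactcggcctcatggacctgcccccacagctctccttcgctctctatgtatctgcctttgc
Crhr1, chr11:104132531-104132830, plus strand: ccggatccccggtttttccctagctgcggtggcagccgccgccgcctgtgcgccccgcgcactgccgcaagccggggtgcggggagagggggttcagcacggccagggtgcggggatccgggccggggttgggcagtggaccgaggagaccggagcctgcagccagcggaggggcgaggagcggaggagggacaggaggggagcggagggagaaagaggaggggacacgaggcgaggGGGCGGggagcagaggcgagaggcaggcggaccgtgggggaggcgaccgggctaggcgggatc
Gpr119, chrX:48674429-48674728, minus strand: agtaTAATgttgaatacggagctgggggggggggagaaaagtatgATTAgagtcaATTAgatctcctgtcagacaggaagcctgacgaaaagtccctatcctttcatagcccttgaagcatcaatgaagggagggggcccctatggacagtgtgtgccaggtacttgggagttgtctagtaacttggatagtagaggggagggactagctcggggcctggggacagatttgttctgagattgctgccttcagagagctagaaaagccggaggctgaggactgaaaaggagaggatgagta
The homeodomain core occurred in 58% of all windows and in 1 of the 9 windows of these receptors, that of Gpr119, which holds 3 copies. GC boxes occurred in 35.7% of all windows and in those of Glp1r (3), Gcgr (2), Adra2a (1) and Crhr1 (1). E-boxes occurred in 72.3% of all windows and in 5 of the 9, with 4 in 1 of the windows of Sstr3, 3 in that of Ffar1 and 1 each in those of Glp1r, Adra2a and Chrm3. G and C made up 73.7% of the Glp1r window and 75% of that of Crhr1, more than in 94.9% and 96.1% of all windows. They made up 56.3% in Ffar1 and 50.3% in Gpr119. Gcgr (71.7%) and Adra2a (68.7%) also had windows rich in G and C.

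Glp1r was the most abundant of the 10 in every group. Per kilobase of merged exon it had a mean of 66.0 ± 4.44 CPM per kb (SD, n = 3) in Pax4 WT and 71.2 ± 7.65 in Pax4 HH on SCD, 78.1 ± 16.3 and 48.3 ± 2.19 on HFD, 112.7 ± 9.84 in Control (n = 2) and 82.1 ± 2.61 in Pax4-BiKO (n = 3). Sstr3, a somatostatin receptor found on the primary cilium, stood at rank 2 in all 6 groups, with means between 22.0 and 37.3 CPM per kb, and overlapped neither neighbour in the order. Crhr1 was last in all 6 groups, with means between 0.200 and 1.04 CPM per kb. Galr1, Gipr, Ffar1 and Adra2a held ranks 3 to 6 in each group of the first table, and most neighbours among them overlapped. Gipr held rank 3 in both SCD groups and rank 6 in both HFD groups of that table. In Pax4 HH on HFD it was at 5.56 ± 0.361 CPM per kb, below every sample of Ffar1 at 6.42 ± 0.364. Gcgr, Gpr119 and Chrm3 followed, between 3.03 and 4.54 CPM per kb in the first table, with Gcgr at rank 7 in each of its 4 groups. In the second table Gpr119 stood at 9.69 ± 0.243 CPM per kb in Control, above Adra2a and Gcgr. The tables were normalized separately, so levels are not compared between them by a test. The plot of the order shows these ranks by group.

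**Figure D1:**
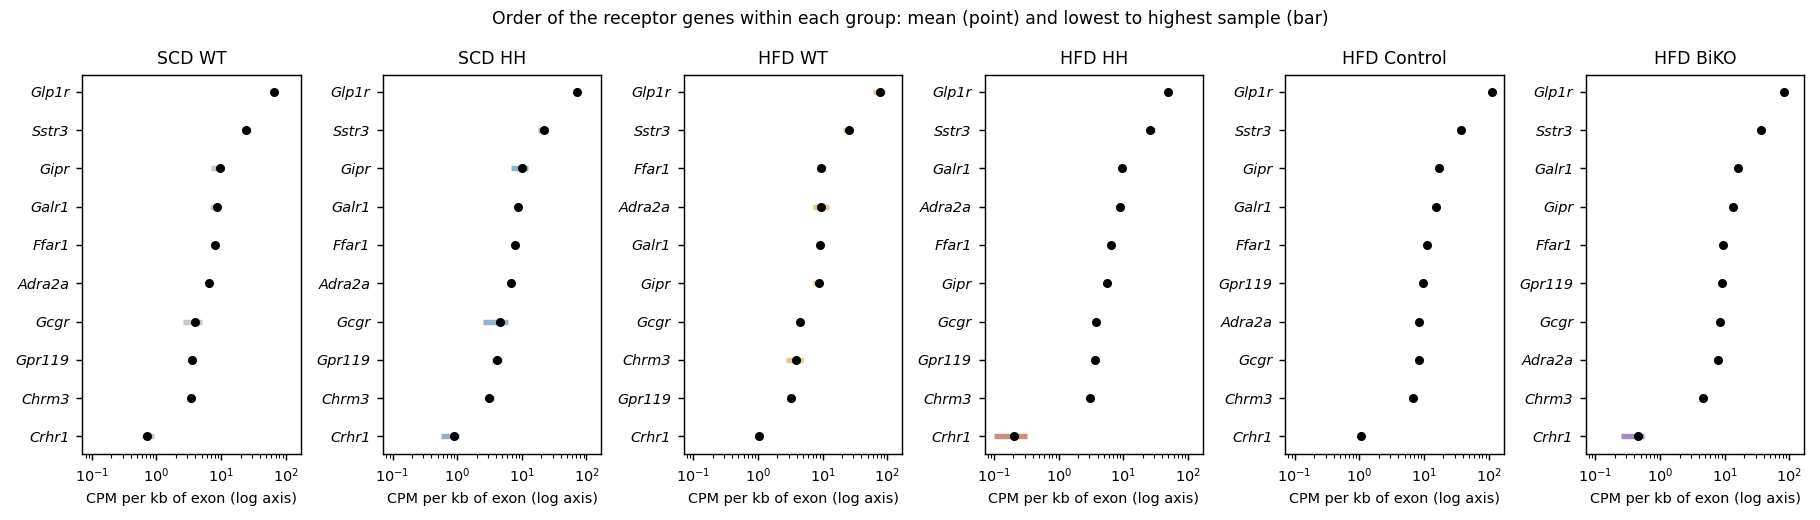
The 10 receptor genes ordered within each of the 6 groups by mean level in CPM per kilobase of exon (horizontal log axis), with the mean as a point and a bar from the lowest to the highest sample. Glp1r is first, Sstr3 second and Crhr1 last in every group, while the middle ranks change places and often overlap.

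Whether receptor levels differed between the Pax4 genotypes without HFD was asked in the SCD groups. No difference of any of the 10 receptors between Pax4 HH and Pax4 WT was detectable on SCD. Glp1r stood at 411, 459.9 and 371 CPM in the 3 Pax4 HH samples and at 382, 359 and 410.2 CPM in the Pax4 WT samples, which overlapped. Gipr was at 37.0, 43.2 and 24.0 CPM against 36.6, 24.3 and 38.5 CPM. Crhr1 was at 1.37, 2.66 and 2.52 CPM against 1.62, 1.45 and 2.27 CPM. By edgeR's quasi-likelihood test, 0 of the 10 passed the call rule of a Benjamini-Hochberg adjusted p below 0.05 over all tested genes with an absolute log2 fold change above 0.5, against 0% of all genes. None had an unadjusted p below 0.05, as 3.29% of all genes did, DESeq2 also called 0, beside 0.0654% of all genes, and 0 of 10 had groups that did not overlap, against 7.83% of all genes. The 95% interval of the log2 fold change was −0.22 to 0.44 for Glp1r and −0.36 to 0.26 for Ffar1. It was wider for receptors that are low or vary more, at −0.52 to 1.10 for Crhr1 and −0.40 to 0.80 for Gcgr. Cell type markers also moved on SCD, with none called. All 9 macrophage markers had negative log2 fold changes (median −0.61, 4 without overlap), as did all 7 stromal markers (median −0.67, 0 without overlap). All 3 PP cell markers had positive ones (median 0.35, 2 without overlap). The part of these markers in the receptor values was not tested.

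The same genotypes were then compared on HFD. Glp1r and Crhr1 were lower in Pax4 HH than in Pax4 WT and passed the test, Gipr and Ffar1 were lower in every sample but did not pass it, and the inhibitory receptors Adra2a, Galr1 and Sstr3 had log2 fold changes between −0.08 and 0.07. The 2 called receptors of 10 compare with 2.28% of all genes called in either direction and 0.820% called lower. Groups did not overlap, with Pax4 HH the lower, for 4 of the 10 receptors against 9.89% of all genes. The median log2 fold change of the 10 was −0.29, and that of all tested genes −0.01.

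Glp1r, the receptor of the incretin GLP-1, was at 294, 278 and 269 CPM in the 3 Pax4 HH samples on HFD and at 544, 355 and 461 CPM in the Pax4 WT samples. The groups did not overlap, and the Pax4 HH samples lay closer to each other than the Pax4 WT samples did. Means were 280.4 ± 12.7 and 454 ± 94.6 CPM (SD, n = 3 each), a 1.62-fold lower level with a log2 fold change of −0.69 (SE 0.15, 95% interval −1.03 to −0.36, edgeR adjusted p = 0.0357). The call was lost when replicate numbers entered edgeR's fit as blocks (−0.69, adjusted p = 0.0855), in a model of only the 2 groups compared (−0.71, adjusted p = 0.0645), and when any HFD sample other than Pax4 WT sample 2 was left out. Without Pax4 WT sample 1 or 3 on HFD the log2 fold change was −0.54 or −0.68 with edgeR adjusted p = 0.129 or 0.131, and without Pax4 HH sample 1, 2 or 3 it was −0.73, −0.69 or −0.66 with adjusted p = 0.102, 0.132 or 0.128.

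Crhr1, through which corticotropin-releasing hormone and urocortin 1 act on β cells, had the largest difference of the 10. Its expected counts were 7, 19 and 14 in the Pax4 HH samples and 90, 64 and 115 in the Pax4 WT samples, or 0.250, 0.797 and 0.432 CPM against 2.40, 2.18 and 2.99 CPM. All 3 Pax4 HH samples on HFD were below every other sample of the first table. The mean was 5.12-fold lower (0.493 ± 0.279 against 2.53 ± 0.420 CPM), and the log2 fold change was −2.37 (SE 0.42, 95% interval −3.27 to −1.47, edgeR adjusted p = 0.0126). Without Pax4 WT sample 3 on HFD the log2 fold change was −2.23 (edgeR adjusted p = 0.0592), and without Pax4 HH sample 1 or 3 it was −2.05 (adjusted p = 0.0557) or −2.28 (adjusted p = 0.0616).

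Gipr, the receptor of the incretin GIP, was at 18.0, 20.4 and 19.7 CPM in Pax4 HH and 34.6, 25.1 and 30.8 CPM in Pax4 WT on HFD. No Pax4 HH sample reached the lowest Pax4 WT sample, and the log2 fold change was −0.64 (SE 0.22, edgeR adjusted p = 0.145). Ffar1, the receptor of long-chain fatty acids also known as GPR40, was at 28.3, 26.9 and 25.2 CPM against 47.3, 33.7 and 38.6 CPM. These groups did not overlap either, and its log2 fold change of −0.58 (SE 0.14) fell just short of the threshold (edgeR adjusted p = 0.0552). It was among the receptors that DESeq2 called, at −0.58 with an adjusted p of 0.00992. Chrm3 was at 18.4, 20.1 and 18.4 CPM against 31.6, 16.96 and 23.2 CPM, with the lowest Pax4 WT sample under all Pax4 HH samples (log2 fold change −0.34, adjusted p = 0.411). Without Pax4 WT sample 1 its log2 fold change was −0.09, and without sample 2 it was −0.53. Gcgr, which responds to glucagon from α cells, was at 10.8, 8.98 and 9.65 CPM against 11.5, 12.9 and 10.7 CPM and overlapped by 1 sample in each group (log2 fold change −0.25, adjusted p = 0.732). Gpr119 was at 8.77, 8.43 and 7.74 CPM against 7.76, 6.48 and 7.84 CPM (log2 fold change 0.17, adjusted p = 0.670). The 95% intervals were −0.45 to 0.29 for Adra2a, −0.22 to 0.35 for Galr1 and −0.32 to 0.43 for Sstr3.

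**Figure D2:**
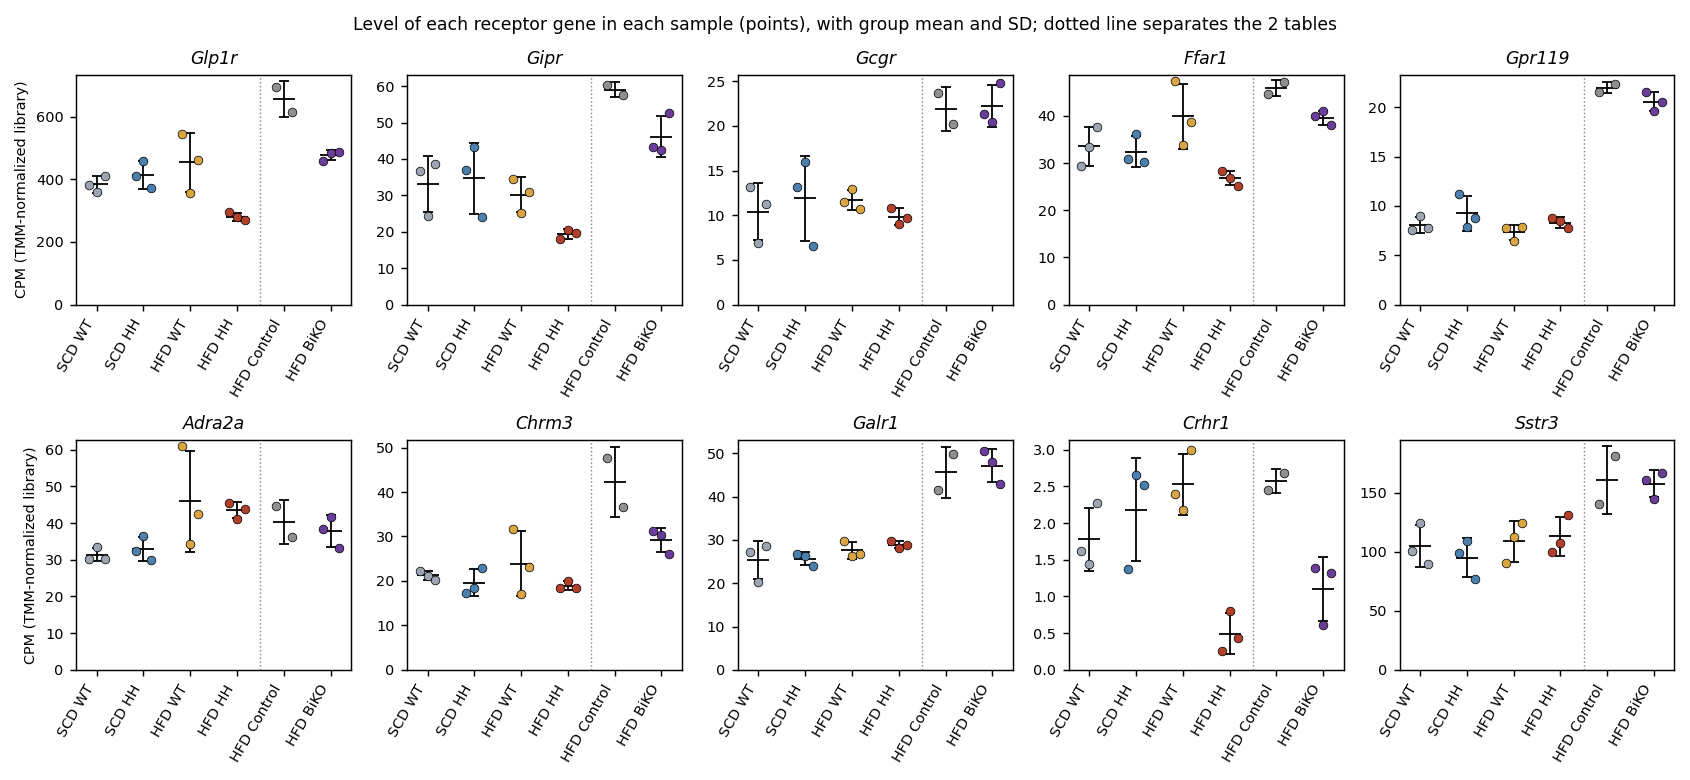
Level of each receptor gene in CPM (vertical axis from 0, each panel on its own scale) in every sample of the 6 groups, with the group mean and SD in black and a dotted line between the 2 separately normalized tables. The 3 HFD HH samples of Glp1r (269 to 294 CPM), Gipr, Ffar1 and Crhr1 lie below all HFD WT samples, while those of Adra2a, Galr1 and Sstr3 overlap with them.

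Acinar markers moved with the same groups: all 25 had a positive log2 fold change in Pax4 HH against Pax4 WT on HFD, 8 of them called, and their summed level did not overlap between the 2 groups. It stood at 115641, 43886 and 45187 CPM in Pax4 HH samples 1, 2 and 3. The sample with the highest acinar sum had the highest Glp1r (294 CPM) and Ffar1 (28.3 CPM) and the lowest Gipr (18.0 CPM) and Crhr1 (0.250 CPM) of its group. With the mean acinar level as a covariate the log2 fold change was −0.68 for Glp1r (SE 0.25, −0.69 without the covariate), −0.49 for Gipr (SE 0.35, −0.64 without), −0.66 for Ffar1 (SE 0.24, −0.58 without) and −2.04 for Crhr1 (SE 0.64, −2.37 without). Their edgeR adjusted p-values were then between 0.542 and 0.782, and 0 genes of all tested were called. Among 12 β cell markers, 3 were called lower, namely the glucose transporter Slc2a2, the zinc transporter Slc30a8 and the cation channel Trpm5. Without overlap, 7 of the 12 were lower and 1 higher, where 9.89% of all genes were lower, while the summed level of the list, which insulin and Iapp dominate, was higher, at 101004 to 112453 CPM against 67632 to 96109 CPM. Of 12 α cell markers, 6 had positive and 6 negative log2 fold changes (median −0.01), 3 were called higher (Gc, Ttr and Slc38a5) and 1 was lower without overlap. The sum of 7 duct markers was 126.8 to 134.8 CPM against 80.6 to 99.0 CPM, and that of 3 PP cell markers 1676 to 3060 CPM against 1166 to 1619 CPM. All 7 stromal markers had positive log2 fold changes (median 0.25) with overlapping groups. Beyond the covariate fit for the acinar genes, the part of these marker lists in the receptor results was not tested.

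**Figure D3:**
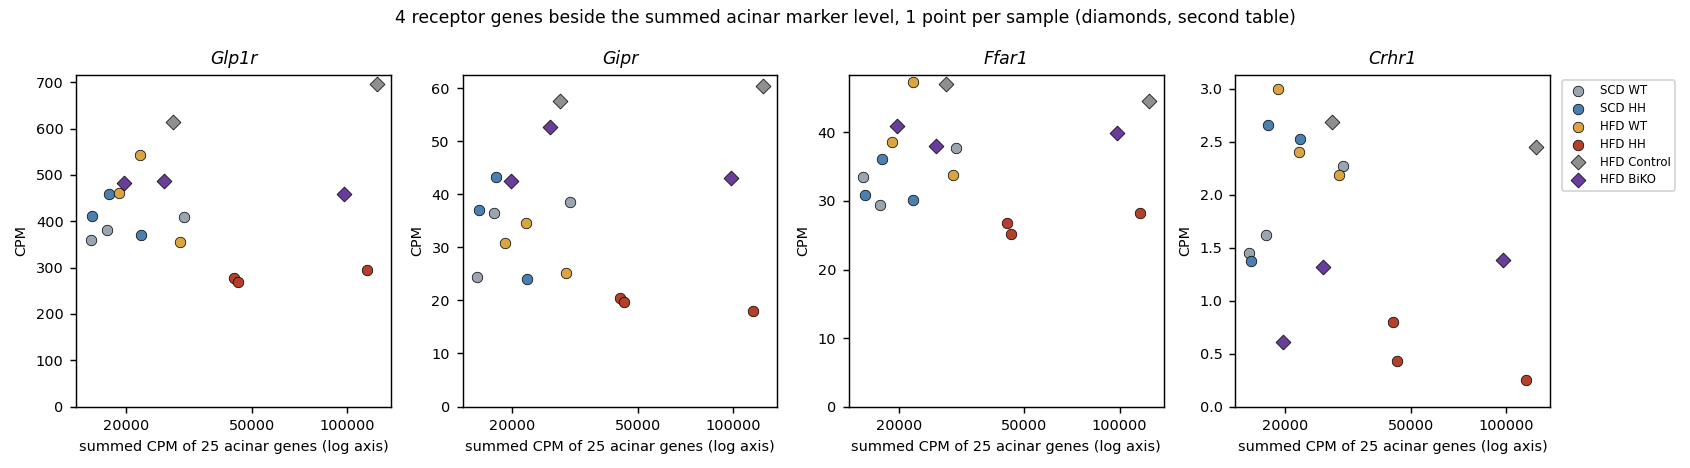
Level of 4 receptor genes in CPM (vertical axis) against the summed CPM of 25 acinar markers (horizontal log axis), with 1 point per sample, coloured by group and with diamonds for the second table. The HFD HH samples lie at 43886 CPM or more of acinar markers and low on each vertical axis; the 2 tables were normalized separately, so circles and diamonds are not to be compared in height.

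**Figure D4:**
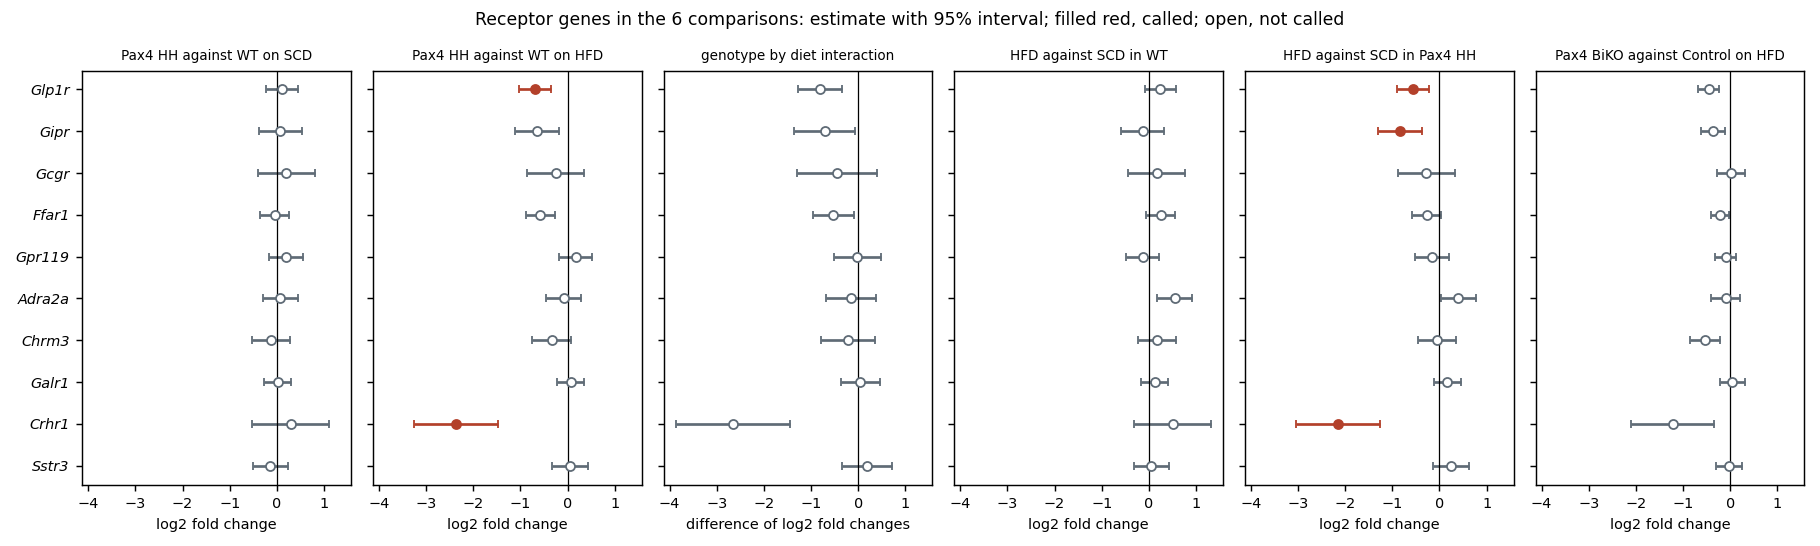
Log2 fold change of each receptor gene with its 95% interval (horizontal axis, the same in each panel) in the 6 comparisons, filled red where called; the interaction panel gives the difference of the log2 fold changes between diets. Only Glp1r and Crhr1 in Pax4 HH against WT on HFD, and Glp1r, Gipr and Crhr1 in HFD against SCD within Pax4 HH, are called.

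Whether the genotype effect differed between diets was tested by the interaction of genotype and diet. None of the 10 receptors passed, against 0.131% of all genes, although 4 had an unadjusted p below 0.05 in edgeR, as did 11.2% of all genes, and DESeq2 called 2, beside 0.8% of all genes. The difference of the log2 fold changes was −2.66 for Crhr1 (SE 0.56, unadjusted p = 0.000357, edgeR adjusted p = 0.0762) and −0.80 for Glp1r (SE 0.22, unadjusted p = 0.00263, adjusted p = 0.171). For Ffar1 it was −0.53 (adjusted p = 0.340) and for Gipr −0.71 (adjusted p = 0.398). These are the receptors that were lower without overlap on HFD. The inhibitory receptors had differences of −0.15 (Adra2a), 0.05 (Galr1) and 0.19 (Sstr3), with unadjusted p-values from 0.447 to 0.803. Without the filter on low counts edgeR called Crhr1 (−2.65, adjusted p = 0.00139), beside 1.78% of all genes, and DESeq2 called Crhr1 (log2 difference −2.68, adjusted p = 0.00166) and Glp1r (−0.81, adjusted p = 0.0227). In the same interaction the log2 difference was positive for all 25 acinar markers (median 1.72), all 7 stromal markers (1.03) and all 9 macrophage markers (0.64), none of them called. With the acinar covariate it was −2.29 for Crhr1 and −0.79 for Glp1r (edgeR adjusted p = 0.726 and 0.746), and the part of the stromal and macrophage markers was not tested.

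HFD against SCD was compared within each genotype to ask how the receptors moved with diet and age. In Pax4 WT, 0 of 10 receptors were called by edgeR, against 0.371% of all genes, 1 had an unadjusted p below 0.05, as did 15.2% of all genes, and DESeq2 called 0, beside 1.38% of all genes. All 7 stromal markers had negative log2 fold changes here (median −2.54, 5 without overlap), as did 8 of 9 macrophage markers, 1 of them called, and their part in the receptor values was not tested. The receptor with the small p was Adra2a, the α2A-adrenergic receptor through which noradrenaline blocks insulin release. It was at 61.1, 34.2 and 42.4 CPM on HFD and 30.3, 33.5 and 30.3 CPM on SCD, all HFD samples being higher (log2 fold change 0.55, SE 0.17, edgeR adjusted p = 0.162). Without HFD sample 1, at 61.1 CPM, the log2 fold change was 0.29. It was 1 of 10 without overlap between diets, against 17.9% of all genes. Glp1r had a log2 fold change of 0.24 (95% interval −0.09 to 0.57) and Ffar1 of 0.25 (−0.06 to 0.56).

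In Pax4 HH, 3 of the 10 receptors were called, all lower on HFD, against 15.7% of all genes called in either direction and 5.91% called lower. The samples of this comparison include the same Pax4 HH samples on HFD as the comparison of genotypes, so it is no separate evidence. Crhr1 fell from 2.18 ± 0.706 to 0.493 ± 0.279 CPM (log2 fold change −2.15, SE 0.42, edgeR adjusted p = 0.00425). Gipr fell from 34.7 ± 9.75 to 19.4 ± 1.26 CPM (−0.84, SE 0.22, adjusted p = 0.0175), and Glp1r from 414 ± 44.5 to 280.4 ± 12.7 CPM (−0.56, SE 0.15, adjusted p = 0.0246). Groups did not overlap for 6 of 10 receptors, against 41.8% of all genes. The other 3 were Ffar1, lower on HFD with a log2 fold change of −0.28, and Adra2a and Galr1, higher with 0.40 and 0.17, none of which was called. Leaving out 1 sample gave −0.32 to −0.15 for Ffar1, 0.34 to 0.52 for Adra2a and 0.12 to 0.23 for Galr1. Adra2a was at 45.6, 41.2 and 43.7 CPM on HFD and at 32.3, 36.4 and 29.9 CPM on SCD, so that it stood higher on HFD without overlap in both genotypes. Without SCD sample 1 or 2, or HFD sample 1, 2 or 3, of Pax4 HH, the calls of Glp1r and Gipr were lost. The log2 fold changes in that order were −0.54, −0.45, −0.59, −0.55 and −0.53 for Glp1r (edgeR adjusted p between 0.0549 and 0.121) and −0.78, −0.63, −0.79, −0.88 and −0.86 for Gipr (0.0542 to 0.0963). Crhr1 stayed called in each case. With the acinar covariate, none of the 3 was called (edgeR adjusted p between 0.287 and 0.454), at log2 fold changes of −0.55 (Glp1r), −0.66 (Gipr) and −1.76 (Crhr1) with larger SEs of 0.28, 0.41 and 0.73. All 25 acinar markers were higher on HFD in Pax4 HH, 24 of them called. All 7 stromal markers had negative log2 fold changes (median −1.62, 4 without overlap, 0 called), and of the 12 β cell markers 3 were called higher and 3 lower. The part of the stromal and β cell markers in the receptor results was not tested.

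Deletion of Pax4 in adult islets was examined in the second table. No receptor was called in Pax4-BiKO against Control by edgeR, against 0.0893% of all genes, while 5 had an unadjusted p below 0.05, as did 12.8% of all genes, and DESeq2 called 1, Chrm3 (adjusted p = 0.0207), beside 0.643% of all genes. With only 2 Control samples, groups failed to overlap often, with Pax4-BiKO lower for 16.7% of all genes. Among the receptors this held for 6 of 10: Glp1r, Gipr, Ffar1, Gpr119, Chrm3 and Crhr1. Glp1r was at 459, 484 and 487 CPM in Pax4-BiKO and at 695 and 615 CPM in Control (log2 fold change −0.46, SE 0.10, edgeR adjusted p = 0.182). DESeq2 gave it an adjusted p of 0.00011 with the same log2 fold change, which is short of the 0.5 that a call needs. Chrm3 was at 31.1, 30.3 and 26.1 CPM against 47.8 and 36.7 CPM (−0.53, SE 0.13, adjusted p = 0.233), and without Control sample 1 its log2 fold change was −0.33. Crhr1 was at 1.39, 0.605 and 1.32 CPM, from expected counts of 40, 20 and 43, against 2.45 and 2.69 CPM from counts of 66 and 81 (−1.22, SE 0.38, adjusted p = 0.282). Gipr was at 43.2, 42.5 and 52.6 CPM against 60.4 and 57.6 CPM (−0.36, SE 0.11, adjusted p = 0.282), and Ffar1 at 40.0, 40.9 and 38.0 CPM against 44.6 and 47.1 CPM (−0.21, SE 0.08, adjusted p = 0.350). Galr1, Sstr3, Adra2a and Gcgr overlapped between the groups, with log2 fold changes of 0.05, −0.03, −0.10 and 0.02. Acinar markers leaned the other way here, with negative log2 fold changes for all 25 and none called. Of the 12 β cell markers, 9 had negative and 3 positive log2 fold changes. Without overlap, 7 were lower and 2 higher, and 1 was called lower, Trpm5. Summed α cell markers were higher in Pax4-BiKO, at 17448 to 18211 CPM against 12989 to 16646 CPM. Of the 12, however, 6 had positive and 6 negative log2 fold changes (median 0.01), and without overlap 5 were higher and 2 lower. Summed duct markers were also higher, at 258 to 319 CPM against 208 to 210.2 CPM. Yet 2 of the 7 had positive and 5 negative log2 fold changes (median −0.24), and without overlap 2 were higher and 1 lower. All 7 endothelial markers had positive log2 fold changes. None of these 3 lists had a called gene, and the part of all these markers in the receptor values was not tested. The table has its own mice and reference group, and no test joined it to the first. Side by side, the log2 fold changes of Pax4 HH against WT and of Pax4-BiKO against Control on HFD were −0.69 and −0.46 for Glp1r, −0.64 and −0.36 for Gipr, −0.58 and −0.21 for Ffar1, −2.37 and −1.22 for Crhr1 and −0.34 and −0.53 for Chrm3. For the others they were −0.25 and 0.02 for Gcgr, 0.17 and −0.10 for Gpr119, −0.08 and −0.10 for Adra2a, 0.07 and 0.05 for Galr1 and 0.05 and −0.03 for Sstr3, so that the signs differed for Gcgr, Gpr119 and Sstr3.

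The wider pathway was followed in lists of other islet receptors, receptor ligands, accessory proteins and kinases of receptors, G proteins, the cAMP arm, the phospholipase C arm and cAMP-responsive genes, in which 150 genes were tested in the first table and 152 in the second. In Pax4 HH against WT on SCD, in the interaction, in HFD against SCD in Pax4 WT and in Pax4-BiKO against Control, edgeR called none of them. In Pax4 HH against WT on HFD it called 4, all lower (2.67%, beside 2.28% of all genes called either way and 0.820% called lower). They were the adenosine receptor Adora1 (1 of 40 tested relatives; 4.67 against 9.22 CPM, log2 fold change −0.98, edgeR adjusted p = 0.00858), the receptor kinases Grk5 (11.1 against 25.7 CPM, −1.21, adjusted p = 0.0301) and Grk3 (47.1 against 69.4 CPM, −0.56, adjusted p = 0.0377), which phosphorylate active receptors (2 of 17 accessory genes), and the IP3-gated calcium channel Itpr2 (1 of 19 genes of the phospholipase C arm; 15.2 against 27.2 CPM, −0.84, adjusted p = 0.0323). None of the 22 G protein genes, 36 genes of the cAMP arm, 12 cAMP-responsive genes and 5 ligands was called. The medians of those 4 lists lay at −0.04, −0.20, −0.29 and −0.07, beside −0.01 for all tested genes. The cAMP-responsive genes were also at a median of −0.49 in Pax4 HH against WT on SCD, with all 12 negative. Without overlap, 5 of the 12 were lower there, beside 807 of 19137 tested genes. In HFD against SCD in Pax4 WT their median was −0.58, with 10 of 12 negative. None of them was called in either comparison. In the cAMP arm the genes of smallest p were the phosphodiesterase Pde8a (−0.42, adjusted p = 0.0902) and the regulatory subunit of protein kinase A Prkar2b (−0.52, adjusted p = 0.101). Among the G proteins they were Gna14 (1.20, adjusted p = 0.109), a Gq-type α subunit, and Gng4 (−0.46, adjusted p = 0.128), a γ subunit, and among the cAMP-responsive genes Junb (−0.74, adjusted p = 0.148) and Nr4a1 (−0.91, adjusted p = 0.240), both immediate early transcription factors.

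Of the ligands made in the islet, none was called. Gcg, the source of glucagon and GLP-1, was at 4879 CPM in Pax4 HH and 5083 CPM in Pax4 WT on HFD (log2 fold change −0.06, edgeR adjusted p = 0.940), and Sst at 684 and 718 CPM (−0.07, adjusted p = 0.883). Ucn3, the β cell urocortin, which acts on the related receptor Crhr2, was at 85.7 and 131 CPM (−0.62, adjusted p = 0.0718). Gal, which encodes the ligand of Galr1, was low, at 0.863 and 0.330 CPM (1.38, adjusted p = 0.298).

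In HFD against SCD within Pax4 HH, 9 of the 150 pathway genes were called higher and 14 lower, a share of 15.3% beside 15.7% of all genes. Of 40 tested relatives, 4 were higher and 6 lower, among them the short-chain fatty acid receptor Ffar2 (27.7 against 13.8 CPM, log2 fold change 1.00, edgeR adjusted p = 0.00627), the vasopressin receptor Avpr1b (0.916 against 2.33 CPM, −1.35, adjusted p = 0.0115), Gabbr2 (0.65, adjusted p = 0.0154), Gprc5c (−0.80, adjusted p = 0.0159), Mc5r (2.80, adjusted p = 0.0211) and Cnr1 (−1.85, adjusted p = 0.0255). Of 17 accessory genes, 4 were higher and 3 lower. The receptor-modifying protein Ramp1 and the regulators of G protein signalling Rgs16 and Rgs4 were higher (1.01, 0.69 and 0.61), and Grk3, Grk5 and Rgs3 lower (−0.63, −1.12 and −0.53). Gnas, which encodes the Gs α subunit that couples Glp1r, Gipr and Gcgr to adenylyl cyclase, rose from 337 to 485 CPM (0.52, adjusted p = 0.00885) as 1 of 22 G protein genes. Creb1, a transcription factor activated by cAMP, was 1 of 36 genes of the cAMP arm and fell from 53.1 to 32.2 CPM (−0.72, adjusted p = 0.00275). Of 19 genes of the phospholipase C arm, 3 fell, the IP3-gated channels Itpr1 (128.8 to 52.8 CPM, −1.28), Itpr2 (−0.59) and Itpr3 (−0.78), and of 12 cAMP-responsive genes 1 fell, Fosb (−1.03, adjusted p = 0.0360).

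Where no gene of a list was called, the 2 of smallest unadjusted p are given as log2 fold changes. In Pax4-BiKO against Control they were Vipr1 (−0.26) and Htr2b (−1.52) of the relatives, Ucn3 (−0.46) and Gal (−1.46) of the ligands, Grk5 (−0.62) and Rgs3 (−0.37) of the accessory genes, and Gng4 (−0.39) and Gnao1 (−0.40) of the G proteins. The remaining lists gave the phosphodiesterases Pde4b (−0.33) and Pde1c (−0.43), the protein kinases C Prkca (−0.62) and Prkce (−0.51), and Crem (0.56) and Nr4a1 (−0.45). Their edgeR adjusted p-values lay between 0.140 and 0.488. Grk5, which was called lower in Pax4 HH against WT on HFD, was thus not called here.

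In the interaction of genotype and diet they were Adora1 (−0.73) and Cckar (1.52), Gal (1.79) and Ucn3 (−0.42), Grk3 (−0.66) and Rgs4 (0.89), Gnas (0.34) and Gna14 (0.85), Pde8a (−0.45) and Adcy7 (0.95), Itpr2 (−1.10) and Itpr1 (−0.96), and Sik1 (1.28) and Nr4a3 (2.41), with edgeR adjusted p-values between 0.114 and 0.592. In HFD against SCD in Pax4 WT they included Calcrl (−0.88), Ucn3 (0.47) and Gal (−1.57), Arrb1 (−1.02) and Grk2 (0.27), Gng12 (0.43) and Gna11 (0.40), Adcy7 (−1.48) and Prkar2a (0.57), Itpr2 (0.51) and Dgkz (0.28), and Sik1 (−1.81) and Dusp1 (−0.55), with adjusted p-values between 0.0533 and 0.311. In Pax4 HH against WT on SCD they were Calcrl (−0.50) and Mc5r (1.38), Sst (0.28) and Chat (1.24), Rgs4 (−0.33) and Ramp3 (−0.58), Gng10 (−0.40) and Gng7 (1.17), Adcy7 (−0.82) and Prkar2b (−0.28), Itpr1 (0.34) and Itpr2 (0.25), and Junb (−0.81) and Dusp1 (−0.53), each with an edgeR adjusted p of 1. No gene of the 7 lists was called in these comparisons.

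**Figure D5:**
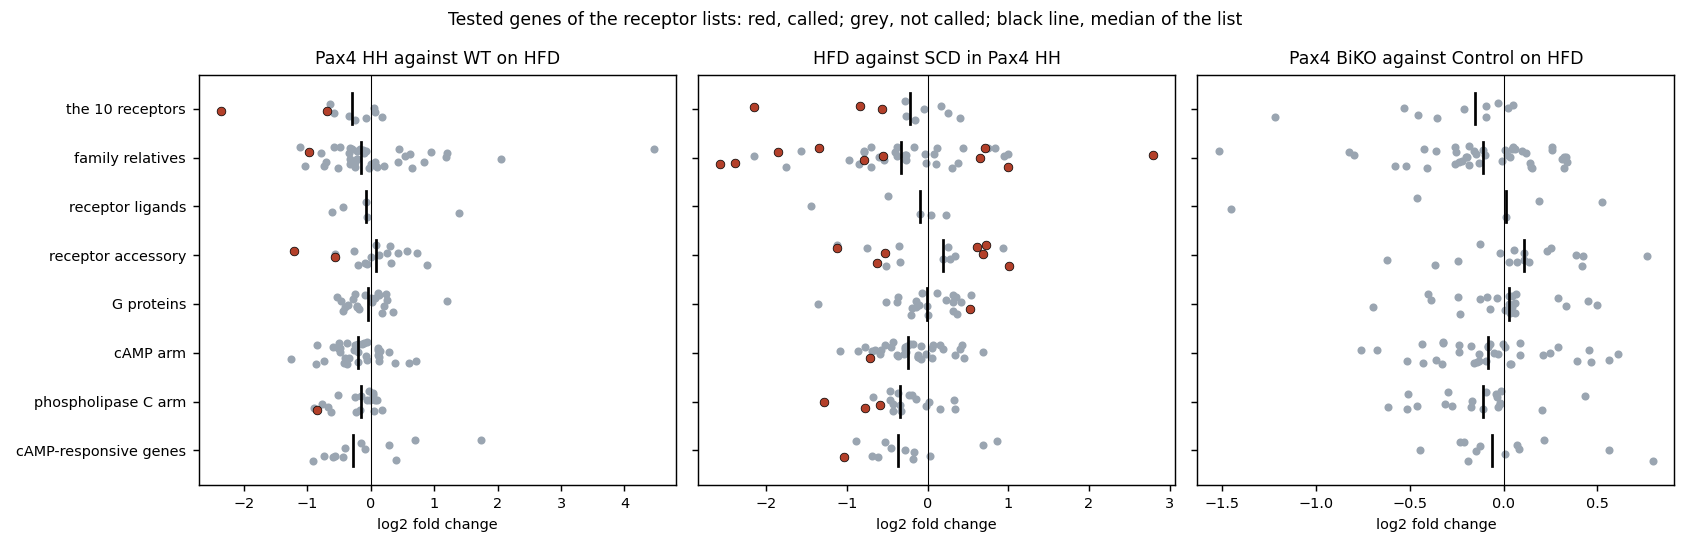
Log2 fold change (horizontal axis) of each tested gene of the 10 receptors and of the 7 pathway lists in 3 comparisons, with called genes in red, others in grey and a black line at the median of the list; the panels have their own horizontal scales. Red points are 2 receptors and 4 pathway genes, all to the left of 0, in the first panel, lie on both sides in the second and are missing from the third.

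Genes whose level followed a receptor most closely over the 12 samples of the first table were taken from 13640 genes with a mean of at least 1 CPM, by Pearson's r of log2 CPM, as a description of samples that share their groups, depth and composition. For Glp1r they were Brd1, Baiap3 and Mllt6 (r = 0.967, 0.961 and 0.956), and Mllt6 was also among the 3 of Ffar1 (0.946) beside Mta1 and Itpkb (0.962 and 0.945). For Gipr they were Rhobtb1, Zbtb43 and Cpm (0.966, 0.950 and 0.943), and for Crhr1 Gpd2, Gramd4 and Gm4791 (0.982, 0.952 and 0.946). Adra2a was followed by Prkaca, Ogdh and Ptprn2 (0.946, 0.920 and 0.915), Gcgr by Pwp2, Cerk and M5C1000I18Rik (0.926, 0.906 and 0.891), and Gpr119 by Heph, Anxa13 and Krt19 (0.950, 0.910 and 0.839). Chrm3 was followed by Lhfpl4, Cbarp and Carm1 (0.882, 0.874 and 0.862), Galr1 by Fbxo34, Pbxip1 and Nelfcd (0.912, 0.905 and 0.895), and Sstr3 by Stim2, Tmem170 and Dyrk3 (0.933, 0.858 and 0.828). No receptor of the list was among the 3 genes closest to another.

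On GRCm38, the assembly behind mm10, GENCODE M21 places Glp1r on chromosome 17 (30901817 to 30940791, plus strand), Gipr and Ffar1 on chromosome 7 (19156061 to 19166127 and 30857390 to 30861564, both minus), Crhr1 and Gcgr on chromosome 11 (104132855 to 104175523 and 120530699 to 120538986, both plus), Adra2a on chromosome 19 (54044151 to 54048982, plus), Chrm3 on chromosome 13 (9875486 to 10360847, minus), Sstr3 on chromosome 15 (78537008 to 78544685, minus) and Gpr119 on chromosome X (48667979 to 48674478, minus). All are protein-coding. Ffar1 and Adra2a have a single merged exon, while Glp1r and Crhr1 have 13 each. Glp1r, Gcgr and Chrm3 lie across other annotated genes, but share 0 exonic bases with them.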

How the data were processed

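The RNA-seq values of 17 islet samples were read from the 2 count files, and samples were grouped by their labels. Each library is labelled a biological replicate; whether islets of more than 1 mouse were pooled for it is not given in the sources used here. Both files hold expected counts, as deposited and not scaled for depth. To make them, the authors sequenced stranded total RNA libraries, mapped the reads on mm10 (STAR v2.7.1), quantified transcripts (RSEM v1.3.3) and collapsed these to genes (tximport). Values were rounded here to whole numbers. The authors' annotation release is not given in the sources used here. Names came from GENCODE M21, which matched 90.7% and 89.5% of tested identifiers, and unnamed ones were tested too.

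Each file was normalized on its own (TMM) and fitted with edgeR v4.0.16 in R v4.3.3 (filterByExpr, minimum count 10, quasi-likelihood F-test, 1 coefficient per group). Adjusted p-values are Benjamini-Hochberg over all tested genes. Calls need an adjusted p below 0.05 together with a log2 fold change beyond 0.5 in either direction. SEs are the log2 fold change over the root of F. Log2 CPM for likeness used a prior count of 2. In the first file 2 unnamed genes took 36.2% to 53.3% of counts. Totals of 24268157 to 42679645 leave Crhr1 as the only receptor with a count under 100 in any sample. The fit was also run on counts simulated with the same spread for every gene and no shift in cell composition. That run does not show how the fit behaves on these samples. The 10 receptors and all lists were chosen with earlier results of these data known. All 10 are reported in each comparison. From the other lists, called genes were named, up to 6 per list and comparison by smallest p, or the 2 of smallest p as values, and the 3 genes most like each receptor. For 1 gene of these lists the value is not reported here. Alternatives were RLE factors, no filter, the replicate number as a block, DESeq2 v1.42.0, models of the 2 groups compared, an acinar covariate, leaving out the 2 largest genes, no fold threshold, and leaving out each sample.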

Additional observations from a re-analysis of the deposited data

How the results depend on the processing

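Each of the 5 called receptor differences kept its direction in all its alternatives, and the call held in 45 of the 70. Dropping the fold threshold reuses the main fit, so that alternative could not lose a call or change a direction. Without the filter on low counts the receptors called numbered 4 in Pax4 HH against WT on HFD (with Gipr and Ffar1), 1 in the interaction (Crhr1), 1 in HFD against SCD in WT (Adra2a) and 2 in Pax4-BiKO against Control (Chrm3 and Crhr1), beside 3.21%, 1.78%, 2.32% and 1.8% of all genes. DESeq2 called 3 (with Ffar1), 2, 0 and 1, beside 2.38%, 0.8%, 1.38% and 0.643%. The model of only the 2 groups compared called 1 in Pax4 HH against WT on HFD, and the acinar covariate left 0 there and 0 in HFD against SCD in Pax4 HH. Leaving out 1 sample gave 0 to 3 and 1 to 3 receptors in those comparisons, and 0 in each of the others. Samples with the same replicate number did not deviate together (correlations from −0.296 to 0.193 and from 0.038 to 0.073), so the numbers were not taken to pair the samples; with the replicate block, 1 receptor was called in Pax4 HH against WT on HFD (Crhr1; Glp1r at −0.69, edgeR adjusted p = 0.0855) and the other 5 counts did not change. Over all genes that comparison called 437, and 1279 without the filter, 947 by DESeq2, 147 with the block and 0 with the acinar covariate. RLE factors, leaving out the 2 largest genes and no fold threshold changed no count of receptors. The causes were not tested. Depth limits Crhr1, whose lowest count was 7.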
